A study of Mus musculus with 6 samples.

Results

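The Rab3 family of small GTPases was described in whole retinae of mice at postnatal day 7. It was taken as the paralogs Rab3a, Rab3b, Rab3c and Rab3d, the Rab3-binding exchange factor Rab3ip and the GTPase-activating subunits Rab3gap1 and Rab3gap2. Every probe set that the platform annotation maps to 1 of these 7 symbols was taken, which gave 11 of 22626 probe sets, for 6 of the 7 genes. No value is given for Rab3gap1, for which the annotation used here names no probe set. The family itself was selected on measured values: in earlier results of the same comparison, a Rab3c probe set was among the named genes with a difference of at least 1.5-fold and no overlap between groups. Its differences between groups are therefore given as a description.

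The samples were 3 arrays of retinal total RNA from hemizygous (-/Y) knockout mice, labelled C57BL/6, and 3 arrays from C57BL/6 wildtype mice, all of the same age and with no treatment besides retina extraction. The labels leave unsaid whether the RNA on an array came from 1 animal or from several. The p-values therefore set the difference between groups only against the spread of these samples, and part of that spread may be technical. The question put to the arrays is which transcripts of the maturing retina differ with the genotype.

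Rab3 proteins sit on synaptic vesicles and secretory granules in their GTP-bound form and leave them when GTP is hydrolysed around the time of release. Exchange factors load the GTP, the Rab3gap1 and Rab3gap2 complex speeds its hydrolysis, GDP dissociation inhibitors take the inactive protein off the membrane, and effectors such as the RIM proteins and rabphilin bind the active form. In the retina, vesicle release runs at the ribbon synapses of photoreceptors and bipolar cells and at the conventional synapses of amacrine cells.

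The promoters of Rab3c and Rab3a are shown because the Rab3c signals carry the only difference of the family past 1.5-fold without overlap, while the Rab3a groups overlapped. Each window runs from 250 bases before to 50 bases after a transcript start in RefSeq, build GRCm38.p6, read 5′ to 3′ along the gene. The Rab3c window lies on the minus strand at chr13:110280157-110280456, and the Rab3a window on the plus strand at chr8:70754453-70754752. For Rab3a, the first of 2 listed windows is shown. Capitals mark matches on either strand to the GC box GGGCGG, the cyclic AMP response element core TGACG, the CCAAT box CCAAT and the TATA box TATAAA.
Rab3c: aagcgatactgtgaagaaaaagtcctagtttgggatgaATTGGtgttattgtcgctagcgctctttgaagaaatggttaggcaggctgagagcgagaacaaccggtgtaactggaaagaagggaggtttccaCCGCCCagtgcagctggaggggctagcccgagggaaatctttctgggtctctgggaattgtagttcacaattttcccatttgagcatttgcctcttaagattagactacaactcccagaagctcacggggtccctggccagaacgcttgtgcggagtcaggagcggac
Rab3a: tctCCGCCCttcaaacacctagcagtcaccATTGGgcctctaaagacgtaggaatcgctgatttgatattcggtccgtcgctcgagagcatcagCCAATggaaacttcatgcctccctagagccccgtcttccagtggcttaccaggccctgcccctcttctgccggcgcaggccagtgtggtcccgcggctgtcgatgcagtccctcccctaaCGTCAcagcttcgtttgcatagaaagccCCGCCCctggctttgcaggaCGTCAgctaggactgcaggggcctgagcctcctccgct

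The Rab3c window held 1 GC box and 1 CCAAT box, both on the reverse strand, and no match to the other motifs. The Rab3a window held 2 GC boxes, 2 TGACG matches and 2 CCAAT boxes, none of which overlapped another. The windows of all 6 measured genes held a GC box, and 35.7% of 32851 windows in the RefSeq table did. A TGACG match was found in those of Rab3a, Rab3b, Rab3d and Rab3gap2, against 20.8% of all windows, a CCAAT box in those of Rab3a and Rab3c, against 37.4%, and a TATA box in that of Rab3b, against 13.6%. The G and C content was 50.7% for Rab3c and 60% for Rab3a, with a median of 52.7% over all windows. It was 51.7% for Rab3b, 71.0% for Rab3d, 69.0% for Rab3gap2 and 71.7% for Rab3ip. A match describes the letters only, and no binding was measured.

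The arrays carried strong signal for some retinal genes and dim signal for others. The rod arrestin Sag had a mean scaled signal of 6717 in knockout and 7625 in wildtype retinae, and the photoreceptor regulator Crx had 3225 in knockout and 3400 in wildtype retinae. No probe set on the table is at 0. The trimmed mean of the deposited signals lay between 262.9 and 304.3 on the knockout arrays and between 170.7 and 311.9 on the wildtype arrays, and each array was scaled to the same trimmed mean. Knockout array 1 stood apart, with correlations of 0.914 to 0.936 with the other arrays, against 0.958 to 0.979 among those 5. The 5′ probe set of the 18S control was at 609 on knockout array 1 and 2573 on wildtype array 2, and between 38.8 and 54.9 on the other arrays. For the Actb control, the signal at the 3′ end over that at the 5′ end was 2.17, 1.69 and 1.90 on the knockout arrays, against 1.64, 1.44 and 1.59 on the wildtype arrays (p = 0.1 in a two-sided exact permutation test, which cannot give less with 3 against 3). For the Gapdh control this ratio was 1.177, 0.884 and 1.155 on the knockout arrays, against 0.982, 0.824 and 0.880 on the wildtype arrays. The groups overlapped for Gapdh (p = 0.2 in the same permutation test).

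A probe set was tested where its mean scaled signal over the 6 arrays exceeded the 40th percentile, 62.4. Of the 11 family probe sets, 8 passed, of 5 genes. The 3 that did not were 1 of the 3 Rab3c probe sets (mean signal 41.8), 1 of the 4 Rab3d probe sets (33.9) and the single Rab3gap2 probe set (48.8), while the dimmest that passed, of Rab3d, had 104. None of the 8 passed an adjusted p of 0.05 in limma with Benjamini-Hochberg adjustment over all 13575 tested probe sets, of which 0.0147% passed. The lowest adjusted p in the family was 0.999, and 1 of the 8 had an unadjusted p under 0.05, as did 518 of all 13575. In 1 of the 8 the groups did not overlap, as held for 9.1% of all tested probe sets. The log2 fold changes (knockout minus wildtype, on log2 of scaled signal plus a pseudocount of 19.1) were negative for 5 of the 8 (4 with quantile normalisation, 3 with median scaling and 2 without rescaling), with a median of -0.066, against 0.00031 over all tested probe sets. Over 17 other settings the negatives ran from 2 to 6 and the median from -0.18 to 0.22. That median was positive with median scaling (0.02), without rescaling, without knockout array 2 (0.02) and without knockout array 3 (0.03).

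**Figure D1:**
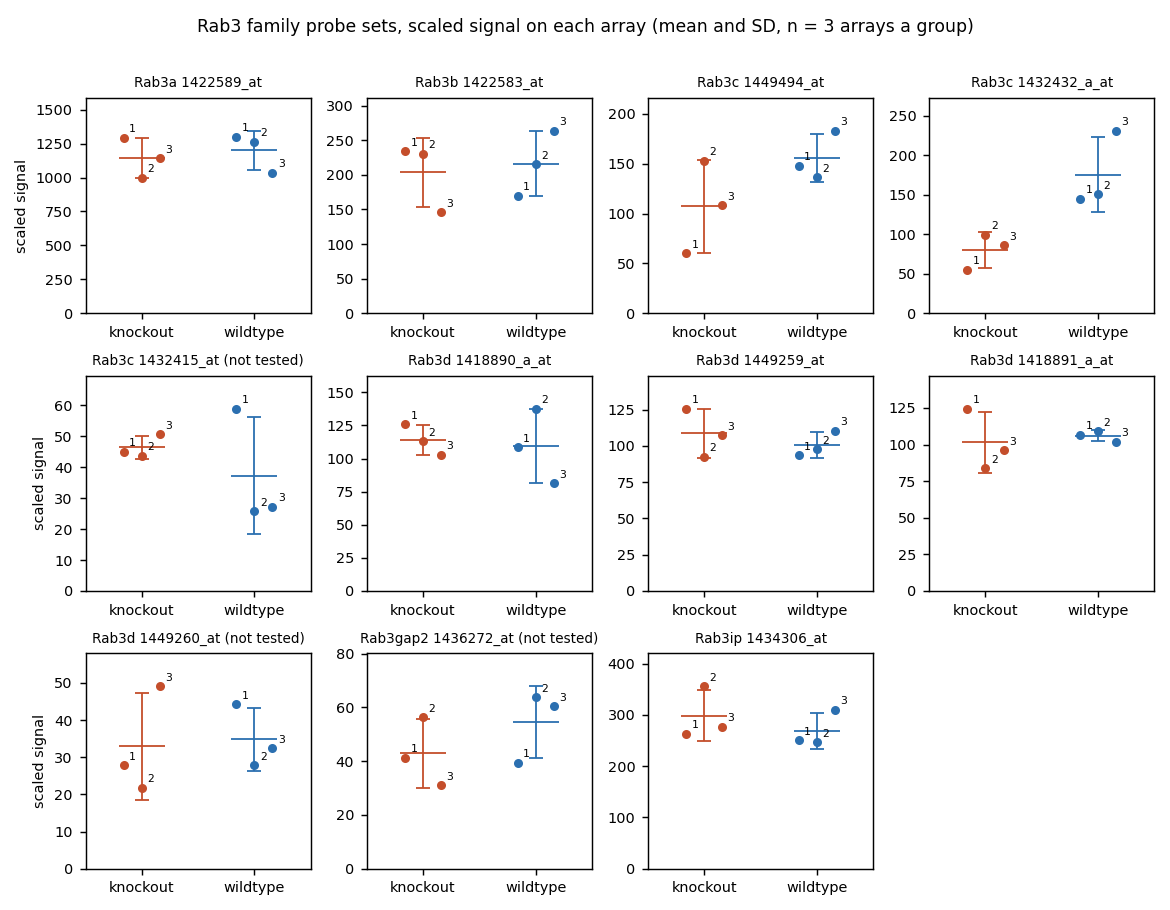
Scaled signal (vertical axes, linear and starting at 0) of the 11 Rab3 family probe sets on each array, with the knockout group left of the wildtype group. Points are single arrays marked with their number, and bars are the mean and SD of 3 arrays. The groups separate only in the Rab3c probe set 1432432_a_at, where the knockout arrays lie between 54.9 and 99.2 and the wildtype arrays between 145 and 231.

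Rab3c, a neuronal Rab3 paralog found on synaptic vesicles, was measured by 3 probe sets, each listed with a different cDNA record. Probe set 1432432_a_at had scaled signals of 54.9, 99.2 and 86.0 on knockout arrays 1 to 3, against 145, 151 and 231 on wildtype arrays 1 to 3. No knockout array reached the lowest wildtype array, with knockout array 1 lowest and wildtype array 3 highest. The mean was 80.0 ± 22.7 in knockout and 175 ± 48.0 in wildtype retinae (SD, n = 3 each), a ratio of 0.456, knockout over wildtype. The log2 fold change was -0.97 ± 0.25 (SE; 95% interval -1.52 to -0.42). This difference is the one on which the family was selected, so it is no independent evidence, and it did not pass the adjusted threshold. A difference of 1.5-fold without overlap was found for 1.36% of tested probe sets in this direction and for 0.25% in the other. In whole retina, fewer cells of a type and less RNA per cell cannot be told apart.

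The second Rab3c probe set, 1449494_at, had 60.3, 153 and 108 on knockout arrays 1 to 3, against 148, 136 and 183 on wildtype arrays 1 to 3. The groups overlapped, since knockout array 2 lay above wildtype arrays 1 and 2. The log2 fold change was -0.53 ± 0.28 (SE; 95% interval -1.15 to 0.09). Across the 6 arrays its log2 values had a Pearson correlation of 0.88 with those of 1432432_a_at. The correlation includes the group difference and the position of knockout array 1, which was the lowest array for both. The third, 1432415_at, was below the filter, with 44.9, 43.7 and 50.6 on the knockout arrays, against 58.9, 25.8 and 27.2 on the wildtype arrays. Its difference of mean log2 values was 0.26, opposite in sign to the other two, and its correlations with them were -0.54 and -0.33.

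The Rab3c values depended in size on single arrays. Without knockout array 1 the log2 fold changes of 1432432_a_at and 1449494_at were -0.78 and -0.23, and without knockout array 2 they were -1.11 and -0.79. With both knockout array 1 and wildtype array 2 left out they were -0.86 and -0.31. In the deposited signals, before any scaling, 1432432_a_at had 65.1, 107 and 88.0 on the knockout arrays and 121, 100 and 280 on the wildtype arrays, so knockout array 2 lay above wildtype array 2 and the groups overlapped. Without rescaling the log2 fold change was -0.71, where the median over all tested probe sets moved to 0.29, and it was -1.0 relative to that median.

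**Figure D2:**
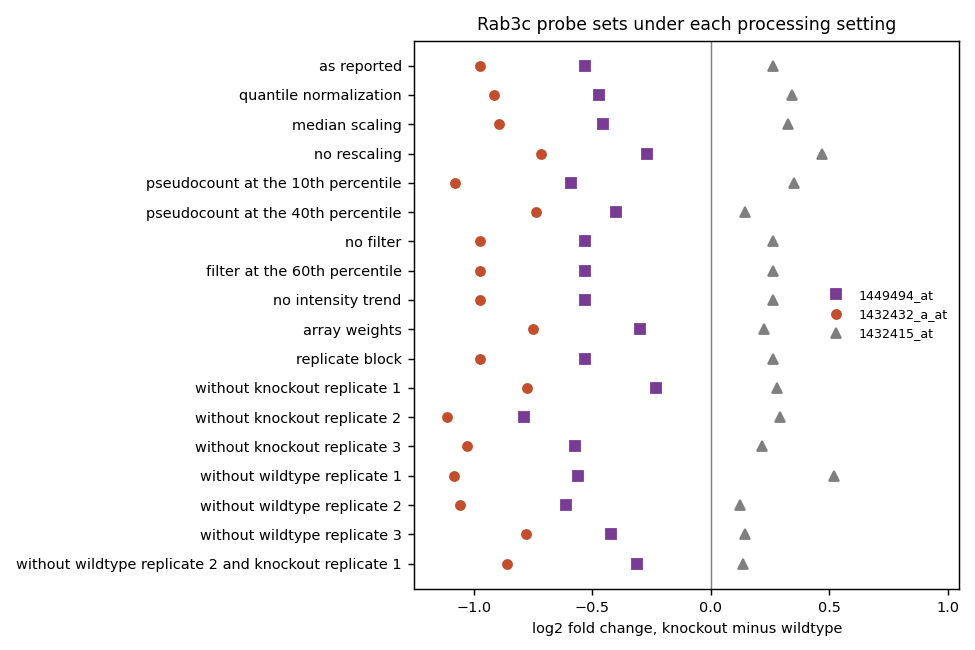
Log2 fold change (horizontal axis, knockout minus wildtype) of the 3 Rab3c probe sets as reported and under each of 17 other processing settings (rows). Probe set 1432432_a_at stays between -1.11 and -0.71, 1449494_at between -0.79 and -0.23, and the dim 1432415_at between 0.12 and 0.52.

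Rab3a, the Rab3 paralog best known from synaptic vesicles of the brain, had scaled signals of 1292, 999 and 1140 on knockout arrays 1 to 3, against 1301, 1263 and 1034 on wildtype arrays 1 to 3. The groups overlapped across nearly their whole range. The mean was 1144 ± 146 in knockout and 1200 ± 145 in wildtype retinae (SD, n = 3 each). The log2 fold change was -0.07 ± 0.15 (SE). Its 95% interval ran from 0.750 to 1.21 as a ratio of knockout over wildtype on the scale with the pseudocount. With the scaling used here this interval does not reach 1.5-fold in either direction. Intervals under other scalings are not given. The sign of the Rab3a difference turned in 3 of 17 other settings, to 0.24 without rescaling, 0.03 with median scaling and 0.02 without knockout array 2. The settings of the filter, the intensity trend and the replicate block, counted among the 17, cannot change it.

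Rab3b, a paralog of neurons and endocrine cells, had 234, 231 and 146 on knockout arrays 1 to 3, against 170, 215 and 264 on wildtype arrays 1 to 3. Knockout array 3 was the lowest array, and the other knockout arrays lay within the wildtype range. This gave a log2 fold change of -0.09 ± 0.23 (SE; 95% interval -0.60 to 0.43), which turned to 0.20 without rescaling, 0.12 without knockout array 3 and 0.06 without wildtype array 3.

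Rab3d, which is best known from secretory granules of exocrine cells, had 4 probe sets, all listed with the same cDNA record. Probe set 1418890_a_at had 126, 113 and 103 on knockout arrays 1 to 3, against 109, 138 and 81.5 on wildtype arrays 1 to 3, with overlapping groups. The log2 fold changes of 1418890_a_at, 1449259_at and 1418891_a_at were 0.07, 0.09 and -0.06, with SE of 0.21, 0.19 and 0.19. Each of the 3 turned sign in some of the 17 other settings, and they ran from -0.09 to 0.35 for 1418890_a_at (lowest without wildtype array 3), from -0.02 to 0.35 for 1449259_at (negative in the settings without knockout array 1) and from -0.20 to 0.20 for 1418891_a_at (positive with quantile, median and no scaling and without knockout array 2). Knockout array 1 was the highest array for 1449259_at and 1418891_a_at, at 126 and 125, and wildtype array 2 for 1418890_a_at. The fourth, 1449260_at, was below the filter, between 21.8 and 49.1 on knockout and between 27.8 and 44.2 on wildtype arrays. Pairwise correlations of the 4 over the 6 arrays ran from -0.35 to 0.64, so probe sets of 1 record did not share an order of arrays.

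Rab3ip, also known as Rabin3 or Rabin8, a protein named for binding Rab3 and an exchange factor whose best known target is Rab8, had 263, 356 and 277 on knockout arrays 1 to 3, against 251, 247 and 310 on wildtype arrays 1 to 3. Knockout array 2 was the highest array, and the other knockout arrays lay within the wildtype range. This gave a log2 fold change of 0.14 ± 0.18 (SE; 95% interval -0.27 to 0.54), which was 0.01 without knockout array 2 and 0.43 without rescaling. Rab3gap2, the non-catalytic subunit of the Rab3 GTPase-activating complex, was below the filter, with 41.3, 56.4 and 31.0 on the knockout arrays, against 39.4, 63.9 and 60.5 on the wildtype arrays. Its groups overlapped, with a difference of mean log2 values of -0.25. In humans, loss of either subunit of this complex causes a syndrome with eye malformations.

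**Figure D3:**
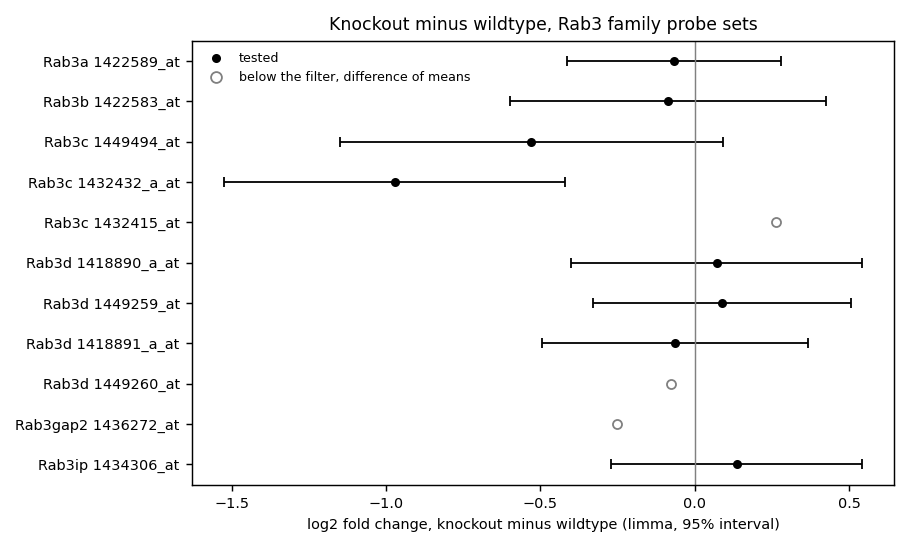
Log2 fold change (horizontal axis, knockout minus wildtype) of each Rab3 family probe set. Filled points are tested probe sets with 95% intervals from limma, and open points are differences of means for the 3 below the filter. The interval of the Rab3c probe set 1432432_a_at, from -1.52 to -0.42, lies below 0, is unadjusted and belongs to the probe set on which the family was selected.

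The partners of Rab3 were summarised from a list of 24 genes of its activation cycle and its effectors, chosen with earlier results of these data known. A single-gene probe set was found for 15, and 11 passed the filter, each gene by its brightest probe set. Of the 11, 0 passed the test in either direction (limma; lowest adjusted p = 0.999; 0 at an unadjusted p under 0.05), with 6 positive and 5 negative log2 fold changes and a median of 0.08, against 0.00031 over all tested probe sets. Groups did not overlap for 1 of the 11, against 9.1% of all tested probe sets.

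That gene was Rims2, an active zone scaffold that binds Rab3, with scaled signals of 204, 291 and 258 on knockout arrays 1 to 3, against 316, 305 and 300 on wildtype arrays 1 to 3. Every knockout array was lower than every wildtype array, by a small margin for knockout array 2. The log2 fold change, -0.28 ± 0.17 (SE; adjusted p = 0.999 by limma), was 0.01 without rescaling and -0.15 without knockout array 1, and the other tested probe set had 0.12. The Rab geranylgeranyl transferase subunit Rabggta, which helps to attach the lipid anchor, had a log2 fold change of -0.26 ± 0.19 (SE), the vesicle priming factor Unc13b 0.18 ± 0.20, and the exchange factor Rab3il1 0.09 ± 0.24. Over the 17 other settings these values ran from -0.40 to 0.04 for Rabggta, from 0.03 to 0.48 for Unc13b (lowest without wildtype array 2) and from -0.10 to 0.36 for Rab3il1 (negative without wildtype array 3).

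The GDP dissociation inhibitor Gdi2 had a log2 fold change of 0.20 ± 0.17 (SE; 0.08 to 0.51 over the other settings, lowest without knockout array 3), but its 6 probe sets ran from -0.74 to 0.20. The exchange factor Madd and the effector Rph3a, rabphilin, were below the filter, with mean scaled signals of 44.3 in knockout and 52.4 in wildtype retinae for Madd and of 35.6 in knockout and 27.3 in wildtype retinae for Rph3a.

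Of 17 related Rab proteins and partners, 15 were tested and 0 passed in either direction (limma; lowest adjusted p = 0.999; 0 at an unadjusted p under 0.05). Positive values were found for 9 and negative for 6, with a median of 0.05. The groups did not overlap for 0 of the 15, against 9.1% of all tested probe sets. Rab8a, which Rab3ip activates, had a log2 fold change of -0.30 ± 0.21 (SE), with 564, 729 and 648 on knockout arrays 1 to 3, against 800, 1049 and 599 on wildtype arrays 1 to 3. Wildtype array 3 lay below 2 of the knockout arrays, and the value was -0.10 without wildtype array 2 and 0.01 without rescaling. Rab27b, which shares effectors with Rab3, had -0.28 ± 0.22, the early secretory Rab1a -0.23 ± 0.13, and the Golgi protein Rab6a 0.19 ± 0.17. Over the 17 other settings these ran from -0.45 to -0.0089 for Rab27b (-0.08 without knockout array 2), from -0.31 to 0.09 for Rab1a (-0.12 without knockout array 1, positive without rescaling) and from 0.06 to 0.50 for Rab6a (lowest without wildtype array 1).

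Of 30 other genes of synaptic vesicles and release sites, 21 were tested and 0 passed in either direction (limma; lowest adjusted p = 0.999; 2 at an unadjusted p under 0.05, against 518 of all 13575). Positive values were found for 9 and negative for 12, with a median of -0.026. The groups did not overlap for 2 of the 21, against 9.1% of all tested probe sets. The calcium sensor Syt1 had scaled signals of 244, 1063 and 917 on knockout arrays 1 to 3, against 1148, 1307 and 1354 on wildtype arrays 1 to 3. Every knockout array was lower than every wildtype array, with knockout array 1, also the lowest array for the tested Rab3c probe sets, far below the rest. Its log2 fold change was -1.0 ± 0.44 (SE) and -0.35 without knockout array 1. The other tested Syt1 probe set had -0.75 with all arrays in. The vesicle SNARE Vamp2 had 1107, 1045 and 1021 on knockout arrays, against 769, 652 and 774 on wildtype arrays, all higher in the knockout. The log2 fold change of 0.52 ± 0.14 (SE) had an adjusted p of 0.999 in limma, while its other tested probe set had -0.64. The complexin Cplx3 of ribbon synapses had -0.17 ± 0.15 (-0.02 without knockout array 1, 0.15 without rescaling). The inhibitory vesicle transporter Slc32a1 had 0.25 ± 0.18 (0.08 without knockout array 1, 0.55 without rescaling).

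**Figure D4:**
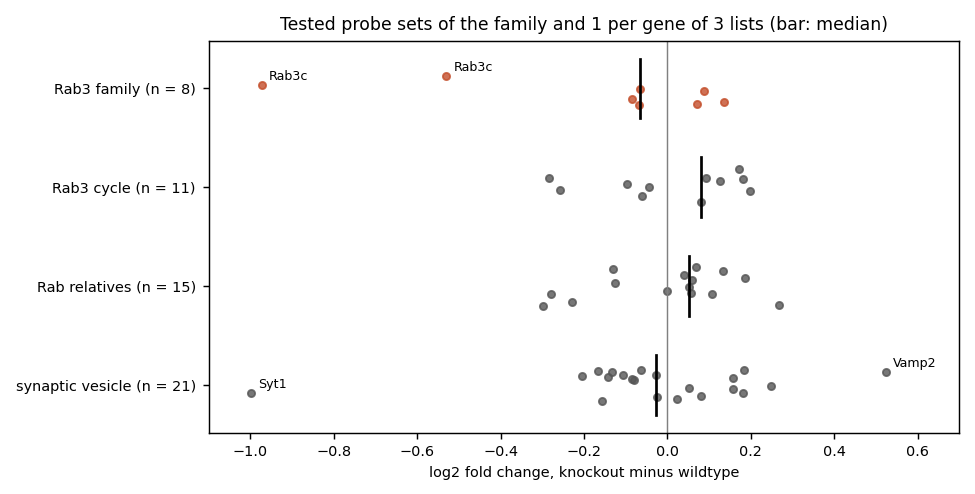
Log2 fold change (horizontal axis, knockout minus wildtype) of the 8 tested Rab3 family probe sets and of 1 tested probe set per gene in the lists of Rab3 cycle genes (11), related Rabs (15) and synaptic vesicle genes (21). Short bars are medians, -0.066, 0.08, 0.05 and -0.026 from top to bottom. Rab3c, Syt1 and Vamp2 lie outside the range of the other points.

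The genes most like Rab3c were looked up by the Pearson correlation of log2 values over the 6 arrays with 1449494_at, its probe set of highest mean signal, among 8158 other named genes. They were Akap10, an anchoring protein for protein kinase A (r = 0.998), Pcmtd1 (0.990), the cone opsin Opn1mw (0.990), Brip1os (0.988) and the centrosomal gene Cep41 (0.986), with log2 fold changes from -0.85 to -0.18. For Rab3a they were the cystatin Cst3 (r = 0.996), the cytochrome oxidase subunit Cox6a1 (0.993), Naxd (0.988), Gata2 (0.984) and Gtf2ird2 (0.984), with log2 fold changes from -0.12 to -0.02. These correlations rest on 6 arrays that share labels, scaling and a low array 1 in the case of Rab3c.

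Markers of tissues that a dissected retina may carry, and of retinal cell types, are given beside the Rab3c values. All 8 muscle markers with a probe set had negative differences, and their summed signal was 340 to 396 on knockout and 477 to 560 on wildtype arrays. Only 4 of the 8 passed the signal filter, so the signs of the rest rest on dim signals. The summed signal was 5464 to 5723 on knockout and 4767 to 5240 on wildtype arrays for 8 of 10 ganglion cell markers, of which 4 had negative differences. It was 1657 to 1989 on knockout and 1485 to 1576 on wildtype arrays for 4 of 5 horizontal cell markers, of which 0 had negative differences. The brightest of these, Septin4, averaged 1222 in knockout and 981 in wildtype retinae. Calb1, also a horizontal cell marker, averaged 449 in knockout and 446 in wildtype retinae. Among the ganglion cell markers, the brightest, Nefl, weighed most in the sum and averaged 2738 in knockout and 2289 in wildtype retinae. Sncg, 1 of the 4 with negative differences, averaged 419 in knockout and 548 in wildtype retinae. The 9 of 10 amacrine markers summed to 4858 to 5189 on knockout and 4548 to 5175 on wildtype arrays, and the 11 of 12 lens markers to 309 to 1186 on knockout and 157 to 2030 on wildtype arrays. The 8 of 10 rod markers summed to 21371 to 26007 on knockout and 25505 to 27814 on wildtype arrays. These rod sums overlapped, and 7 of the 8 markers had negative differences. Summed signals also overlapped for cone (4 of 8 negative), bipolar (3 of 6) and Mueller glia (4 of 8) markers. The part of these tissues and cell types and of the Actb and Gapdh ratios in the Rab3c values was not tested. Nor was that of knockout array 1, beyond the values without that array.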

How the data were processed

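Retinal total RNA of 3 knockout and 3 wildtype samples was hybridised to Affymetrix arrays. Per the submitters' processing notes the deposited table was made with MAS5, and its values are intensity on a linear scale. The software version, scaling target and detection calls are not given in the sources used here. The targeted gene is not reported here, and the labels were not checked against it.

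The 64 control probe sets were set aside. All arrays were brought to a common mean, computed without the top and bottom 2% of values, 19.1 (the 20th percentile of all scaled signals) was added, and log2 was taken, which understates fold changes of dim probe sets. The deposited values had not been log2 transformed. Probe sets above the 40th percentile of mean signal (13575 of 22626) entered a fit of lmFit and eBayes, with a trend on intensity, from limma 3.58.1 under R 4.3.3, and p-values were adjusted by Benjamini-Hochberg over all of them. The code was tested on simulated data with independent noise, changes larger than those of the family and no outlying array. That test does not cover how the fit behaves on these arrays.

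Gene names come from the platform's annotation, updated by Entrez identifier. A single symbol was found for 20380, several for 691 and none for 1555. Identifiers ending in _a_at, _s_at or _x_at can hybridise with related transcripts. Members, gene lists and settings were chosen with earlier results of these data known. Named genes were all members, up to 4 genes a list by moderated statistic, 7 fixed partners of Rab3 and the 5 genes most correlated with Rab3c and with Rab3a. Fixed partners that are not described were not analysed here. Alternatives covered scaling, the pseudocount, the filter, the intensity trend, weighted arrays, a replicate block and each array left out. Those of the filter, the intensity trend and the replicate block leave every log2 fold change as it was. Leaving out 2 arrays together was added after seeing the data. Array number limits the precision of every value.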

Additional observations from a re-analysis of the deposited data

How the results depend on the processing

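No Rab3 family probe set passed an adjusted p of 0.05 in limma under any of the 17 settings run. The lowest adjusted p was 0.53, for Rab3c 1432432_a_at without knockout replicate 2. The groups of 1432432_a_at could come to overlap only where the scaling changed, since no other setting can change the order of the arrays. They stayed apart with quantile normalisation and median scaling and overlapped without rescaling. The count of Rab3 probe sets past 1.5-fold whose groups did not overlap (1) fell to 0 both in unrescaled data and with the filter at the 60th percentile, where 3 family probe sets were tested. With 1 array left out it lay between 1 and 2, and was 2 without knockout replicate 2, where 1449494_at joined. Of 187 family log2 fold changes under the settings, 17 turned sign, in 6 of 11 probe sets and 4 of them without rescaling. The 187 include the settings of the filter, the intensity trend and the replicate block, under which no log2 fold change can move. The log2 fold changes of Rab3c, Rab3gap2 and Rab3ip kept their sign in all 17 settings, these included. Negative values among the 8 tested were 4 with quantile and 3 with median scaling, and 2 without rescaling, where all tested probe sets had a median of 0.29.

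The count of all probe sets past the threshold (2) was 10 without rescaling and 1 without a filter. With 1 array left out it lay between 0 (without wildtype replicate 3) and 4 (without wildtype replicate 2), was 1 without knockout replicate 2 or 3, and was 4 without wildtype replicate 2 and knockout replicate 1. The cause was not tested. The replicate block fit called 2 probe sets, with a lowest adjusted p of 0.55 in the family. The numbers are not shown to pair the arrays: deviations of same-numbered arrays had correlations of 0.18, -0.03 and 0.08, and 3 of 6 arrays correlated best with their own number. No detection calls were used, so whether the 3 dim family probe sets were above background is not known here.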
